A study of Mus musculus with 15 samples.

Results

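The genes described here are 36 genes of the dividing cell cycle, 17 that act in S phase and 19 that act in G2 or mitosis. They were taken as a list of gene symbols, and all 36 were among the 17454 genes measured. Expression was measured by RNA-seq in erythro-myeloid progenitors (EMPs), sorted as KIT, CD41 and CD16/32 positive cells from single mouse yolk sacs at E10.5, in mid-gestation, in 15 libraries on the C57BL/6 strain. Every embryo, controls included, carried the conditional allele Ezh2fl/fl. Tie2-Ezh2-KO (5 libraries) also carried Tie2-CreTg/+ and Vav-Ezh2-KO (5 libraries) carried Vav-CreTg/+, whereas Tie2-Ezh2-WT (3 libraries, written Tie2-Cre+/+) and Vav-Ezh2-WT (2 libraries, written Vav-Cre+/+) had no Cre. Tie2-Cre acts in endothelium and in the blood cells that derive from it, and the Vav transgene acts in blood cells once they have formed, so the 2 knockouts differ in the cells and in the time of deletion. Both sexes were used, and the labels give 500 EMPs for each library, while the study's methods give a smaller number. The 5 libraries without Cre are called WT where they were pooled.

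Before S phase, the MCM helicase is loaded on replication origins by Cdc6 and Cdt1. It is then switched on with Cdc45 and the GINS complex while cyclin E and the E2F factors drive the genes of DNA synthesis. The G2/M genes are held back by the DREAM complex and are later switched on by MYBL2 and FOXM1, often through CCAAT boxes and CHR elements in their promoters. EMPs are the first definitive progenitors of the yolk sac, arise from hemogenic endothelium and divide actively.

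Reads assigned to genes ranged from 10407298 to 41024871 for each library. Values are in RPKM, reads scaled to the length of the gene model and to the depth of the library, which allows levels of different genes to be compared. Values of a group are given in the order of its replicate numbers, which were 4, 10 and 12 for Tie2-Ezh2-WT, 4 and 6 for Vav-Ezh2-WT, 7, 9, 11, 13 and 17 for Tie2-Ezh2-KO, and 1, 9, 10, 26 and 28 for Vav-Ezh2-KO. The smallest number of reads behind any member in any library was 216, for Fam83d.

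The target of the deletion, Ezh2 (chr6:47530274-47595270 in GRCm38), was at 36.9, 39.5 and 30.1 RPKM in Tie2-Ezh2-WT, 42.0 and 41.5 in Vav-Ezh2-WT, 27.8, 26.2, 24.8, 29.5 and 26.5 in Tie2-Ezh2-KO and 33.7, 42.4, 37.8, 38.1 and 34.0 in Vav-Ezh2-KO. All 5 Tie2-Ezh2-KO libraries were below all WT and all Vav-Ezh2-KO libraries, and Vav-Ezh2-KO overlapped WT. By limma, with p adjusted over all genes tested and a threshold of 0.05, Ezh2 was lower in Tie2-Ezh2-KO than in WT (log2 change -0.48, SE 0.12, 95% interval -0.74 to -0.23, adjusted p = 0.0418) and did not pass in Vav-Ezh2-KO (log2 change -0.02, SE 0.11, 95% interval -0.25 to 0.21, adjusted p = 0.969); the intervals cover the spread between libraries only. The first call was lost in 11 of 22 alternatives, with adjusted p from 0.0107 to 0.344, among them those without Tie2-Ezh2-WT 4 or 10, Vav-Ezh2-WT 4 or 6, or Tie2-Ezh2-KO 7, 11 or 17, with log2 changes from -0.56 to -0.39 over all 22. The value covers the whole gene model of 2667 bases and does not separate the deleted exons, so it does not check the Vav-Ezh2-KO label, on which directions given for that group rest. The study reports loss of the deleted exon in both knockouts from a separate assay. The 4 genes of the sorting gate were present in every library: summed Kit, Itga2b, Fcgr3 and Fcgr2b was 164, 208 and 221 RPKM in Tie2-Ezh2-WT, 205 and 163 in Vav-Ezh2-WT, 148, 125, 165, 153 and 166 in Tie2-Ezh2-KO and 192, 281, 135, 193 and 176 in Vav-Ezh2-KO. Fcgr3 was the most abundant of these 4 genes.

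Markers of other cell types differed between libraries. The study's gate also took cells negative for lineage markers and for SCA1, and the RNA values do not give which cells it removed. The 8 primitive erythroid markers summed to 151, 133 and 149 RPKM in Tie2-Ezh2-WT, 72.7 and 123 in Vav-Ezh2-WT, 323, 590.3, 869, 202 and 294 in Tie2-Ezh2-KO and 89.3, 131, 66.0, 161 and 158 in Vav-Ezh2-KO. Every Tie2-Ezh2-KO sum was above all others; the embryonic globin gene Hbb-bh1 was the most abundant of the 8, and Slc4a1, a membrane protein of mature red cells, was at 0 in all WT and Vav-Ezh2-KO libraries. The 8 visceral endoderm markers summed to 174.1 RPKM in Tie2-Ezh2-WT 4 and 245.1 RPKM in Tie2-Ezh2-KO 7, with Apoa1 the most abundant over all libraries, and to at most 14.9 RPKM in the other 13 libraries. Of 8 endothelial markers 7 were matched, led by Pecam1, and they summed to between 24.9 and 54.9 RPKM. Sums were between 1.32 and 3.21 RPKM for 7 mesenchymal markers, led by Pdgfrb, and between 1.99 and 11.7 RPKM for 8 macrophage markers, led by Csf1r and with C1qa at 0 in all libraries. The 7 megakaryocyte markers summed to between 152.2 and 368.7 RPKM. In bulk samples, fewer cells of a type and less RNA per cell cannot be told apart. The part of these markers in the results on the cell cycle genes was not tested, except where a value without the library is given.

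The S-phase members were expressed at high levels in all 4 groups. Rrm2, the small subunit of the ribonucleotide reductase that makes deoxynucleotides, had the highest mean RPKM of the list and was at 416, 444 and 454 RPKM in Tie2-Ezh2-WT, 565 and 506 in Vav-Ezh2-WT, 484, 447, 479, 487 and 475 in Tie2-Ezh2-KO and 500.0, 523, 652, 445 and 446 in Vav-Ezh2-KO. Pcna, the sliding clamp of the replicative polymerases, was at 394, 362 and 424 RPKM in Tie2-Ezh2-WT, 394 and 369 in Vav-Ezh2-WT, 435, 457, 439.9, 345 and 372 in Tie2-Ezh2-KO and 411, 437, 443, 369 and 362 in Vav-Ezh2-KO. Pcna overlapped between all groups, and Rrm2 overlapped except that both Vav-Ezh2-WT values were above all Tie2-Ezh2-WT and Tie2-Ezh2-KO values. Over all 15 libraries the 6 MCM helicase genes ranged over 71.1 to 186 RPKM for Mcm2, 121 to 297 for Mcm3, 123 to 182 for Mcm4, 86.4 to 199.7 for Mcm5, 246 to 317 for Mcm6 and 133 to 247 for Mcm7. Rrm1, the large subunit of the reductase, was at 143 to 219 RPKM, Gins2, of the GINS complex, at 98.5 to 151, Tyms, thymidylate synthase, at 62.9 to 94.9 and Cdc45, a helicase partner, at 51.9 to 75.0. The cyclin E genes differed in level, with Ccne1 at 64.7 to 126 RPKM and Ccne2 at 13.5 to 32.4. The lowest S-phase member was the transcription factor E2f1, at 12.5, 12.8 and 13.3 RPKM in Tie2-Ezh2-WT, 18.6 and 21.3 in Vav-Ezh2-WT, 16.1, 8.80, 13.7, 23.6 and 24.4 in Tie2-Ezh2-KO and 14.2, 14.8, 13.5, 18.0 and 16.3 in Vav-Ezh2-KO. E2f1 was low in Tie2-Ezh2-KO 9 and high in Tie2-Ezh2-KO 13 and 17, so that the Tie2-Ezh2-KO libraries spanned the values of all other libraries. The median S-phase member had a mean of 137.1 RPKM, against 4.29 RPKM for the median of the 14394 genes above 0.2 RPKM in at least 1 library.

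The G2/M members spanned a wider range of levels. Ccnb1, the cyclin B1 partner of Cdk1, was highest at 541, 474 and 461 RPKM in Tie2-Ezh2-WT, 353 and 357 in Vav-Ezh2-WT, 457, 548, 508, 414 and 397 in Tie2-Ezh2-KO and 432, 427, 417, 426 and 383 in Vav-Ezh2-KO. Cdk1, the kinase that drives entry into mitosis, was at 114, 110.1 and 113 RPKM in Tie2-Ezh2-WT, 104 and 108 in Vav-Ezh2-WT, 113, 162, 117, 97.6 and 104 in Tie2-Ezh2-KO and 106, 118, 122, 129 and 114 in Vav-Ezh2-KO. The Vav-Ezh2-WT values of Ccnb1 were the lowest of the 15 libraries, and Cdk1 was highest in Tie2-Ezh2-KO 9 and otherwise within 97.6 to 129 RPKM. Among the other cyclins, Ccna2 was at 99.6 to 133 RPKM and Ccnb2 at 201 to 314. Of the mitotic kinases, Plk1 was at 101 to 156 RPKM, Aurka at 158 to 256, Aurkb at 127 to 177 and the spindle checkpoint kinases Bub1 and Bub1b at 41.5 to 54.1 and 32.3 to 60.7. Birc5, the survivin subunit that works with Aurkb, was at 89.9 to 160.1 RPKM and Cdc20, which activates the anaphase-promoting complex, at 255 to 376. The spindle genes were at 30.9 to 49.7 RPKM for Kif11, 45.1 to 68.9 for Kif20a and 30.4 to 45.6 for Tpx2, and Top2a, which untangles sister chromatids, was at 24.6 to 58.7. Mki67, the common proliferation marker, was at 7.74, 8.11 and 8.54 RPKM in Tie2-Ezh2-WT, 7.69 and 8.08 in Vav-Ezh2-WT, 8.17, 10.4, 8.66, 10.2 and 8.40 in Tie2-Ezh2-KO and 7.93, 9.87, 7.05, 8.38 and 7.63 in Vav-Ezh2-KO. The lowest member, the kinetochore motor Cenpe, was at 4.48, 3.999 and 6.56 RPKM in Tie2-Ezh2-WT, 3.46 and 6.23 in Vav-Ezh2-WT, 4.47, 8.39, 6.22, 8.46 and 5.93 in Tie2-Ezh2-KO and 3.87, 5.87, 6.74, 5.52 and 4.97 in Vav-Ezh2-KO. Cenpe overlapped between all groups, and Mki67 overlapped except that all Tie2-Ezh2-KO values were above both Vav-Ezh2-WT values. With Cenpf, a further kinetochore gene at 3.53 to 8.02 RPKM, they were the 3 lowest members and had the 3 longest gene models, of 10075 bases for Mki67, 7813 for Cenpe and 11122 for Cenpf. The median G2/M member had a mean of 55.9 RPKM.

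Spread among libraries is given as the pooled SD within the 4 groups. On the scale of log2(RPKM + 0.2), it had a median of 0.216 over the S-phase members and 0.158 over the G2/M members, against 0.233 over the 6864 genes with a mean above 5 RPKM, a level chosen after the members' values were seen because every member lay above it. It was smallest for Bub1 (0.0958) and largest for E2f1 (0.378), with Cenpe (0.367), Mcm2 (0.351), Top2a (0.338), Mcm5 (0.335) and Mcm3 (0.330) next.

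Deletion in endothelium was compared first, to see whether division genes differ without Ezh2. No member passed the test, the 95% interval of every member lay within 2-fold of WT, and the smallest adjusted p of the 36 was that of the cyclin E1 gene Ccne1. Against WT, 0 of 17 S-phase members and 0 of 19 G2/M members passed the threshold of an adjusted p of 0.05 in Tie2-Ezh2-KO by limma over 14154 genes, of which 386 passed (2.73%) and 343 of them were higher (2.42%). The count of genes was 187 against Tie2-Ezh2-WT alone and 217 without the 2 libraries with visceral endoderm markers, a choice made after seeing the data. At an unadjusted p under 0.05 there were 1 S-phase member, Ccne1, 0 G2/M members and 1552 genes, and limma-voom on recovered reads called 0 members. No member had groups that did not overlap, against 4.01% of all genes. The median log2 change was -0.03 over the S-phase members, of which 7 were positive and 10 negative, and 0.09 over the G2/M members, of which 14 were positive and 5 negative, beside 0.01 over all genes tested. All 36 members had a 95% interval of the change within 2-fold in either direction, as did 71.0% of all genes tested and 94.6% of those with a mean above 5 RPKM. Within 1.5-fold were 15 of 17 S-phase and 15 of 19 G2/M intervals (88.2% and 78.9%), against 71.4% of the genes above 5 RPKM.

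Ccne1, the cyclin E1 gene that starts S phase with Cdk2, was at 76.2, 66.1 and 91.4 RPKM in Tie2-Ezh2-WT, 79.3 and 87.1 in Vav-Ezh2-WT, 108, 73.9, 126, 95.3 and 110.3 in Tie2-Ezh2-KO and 72.5, 67.0, 109.6, 70.6 and 64.7 in Vav-Ezh2-KO. The 4 Tie2-Ezh2-KO libraries other than replicate 9 were above all 5 WT libraries, replicate 9 lay among them, the groups thus overlapped, and Vav-Ezh2-KO 10 stood at the level of the higher Tie2-Ezh2-KO libraries. The change against WT did not pass the threshold (log2 change 0.35, SE 0.14, 95% interval 0.05 to 0.65, adjusted p = 0.317 by limma, two-sided exact permutation p = 0.0556, n = 5 against 5). Without Tie2-Ezh2-KO 9 it passed, with a log2 change of 0.46 and an adjusted p of 0.0429, and over all alternatives run the adjusted p ranged from 0.0429 to 0.62.

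Of the other S-phase members, Cdc6, which loads the helicase, came next by unadjusted p. It was at 47.9, 45.9 and 43.1 RPKM in Tie2-Ezh2-WT, 48.1 and 50.9 in Vav-Ezh2-WT, 50.5, 28.1, 45.8, 44.1 and 42.8 in Tie2-Ezh2-KO and 40.7, 38.6, 47.4, 41.6 and 36.8 in Vav-Ezh2-KO. Tie2-Ezh2-KO 9 was the lowest of all libraries, replicate 17 was just below the WT range and the other 3 were within it, and the change did not pass (log2 change -0.18, SE 0.14, 95% interval -0.49 to 0.12, adjusted p = 0.808 by limma). Among G2/M members the smallest unadjusted p was that of Cenpe (log2 change 0.43, SE 0.24, 95% interval -0.08 to 0.93, adjusted p = 0.607 by limma, exact permutation p = 0.143), whose 2 highest values were in Tie2-Ezh2-KO 9 and 13. Top2a followed, at 31.6, 33.2 and 44.5 RPKM in Tie2-Ezh2-WT, 24.6 and 29.2 in Vav-Ezh2-WT, 25.7, 33.2, 41.8, 58.7 and 42.3 in Tie2-Ezh2-KO and 27.7, 37.4, 25.2, 34.2 and 38.9 in Vav-Ezh2-KO. Tie2-Ezh2-KO 13 was above all other libraries and Tie2-Ezh2-KO 7 below 4 of 5 WT libraries, and the change did not pass (log2 change 0.28, SE 0.20, 95% interval -0.15 to 0.71, adjusted p = 0.772). The common markers also did not pass: the log2 change was 0.07 for Pcna, 0.18 for Mki67, 0.09 for Cdk1 and 0.10 for Ccnb1, with adjusted p values of 0.921, 0.823, 0.917 and 0.913. The exact permutation p of Mki67 was 0.0397, and 3 of its 5 knockout values lay higher than every WT value.

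**Figure D1:**
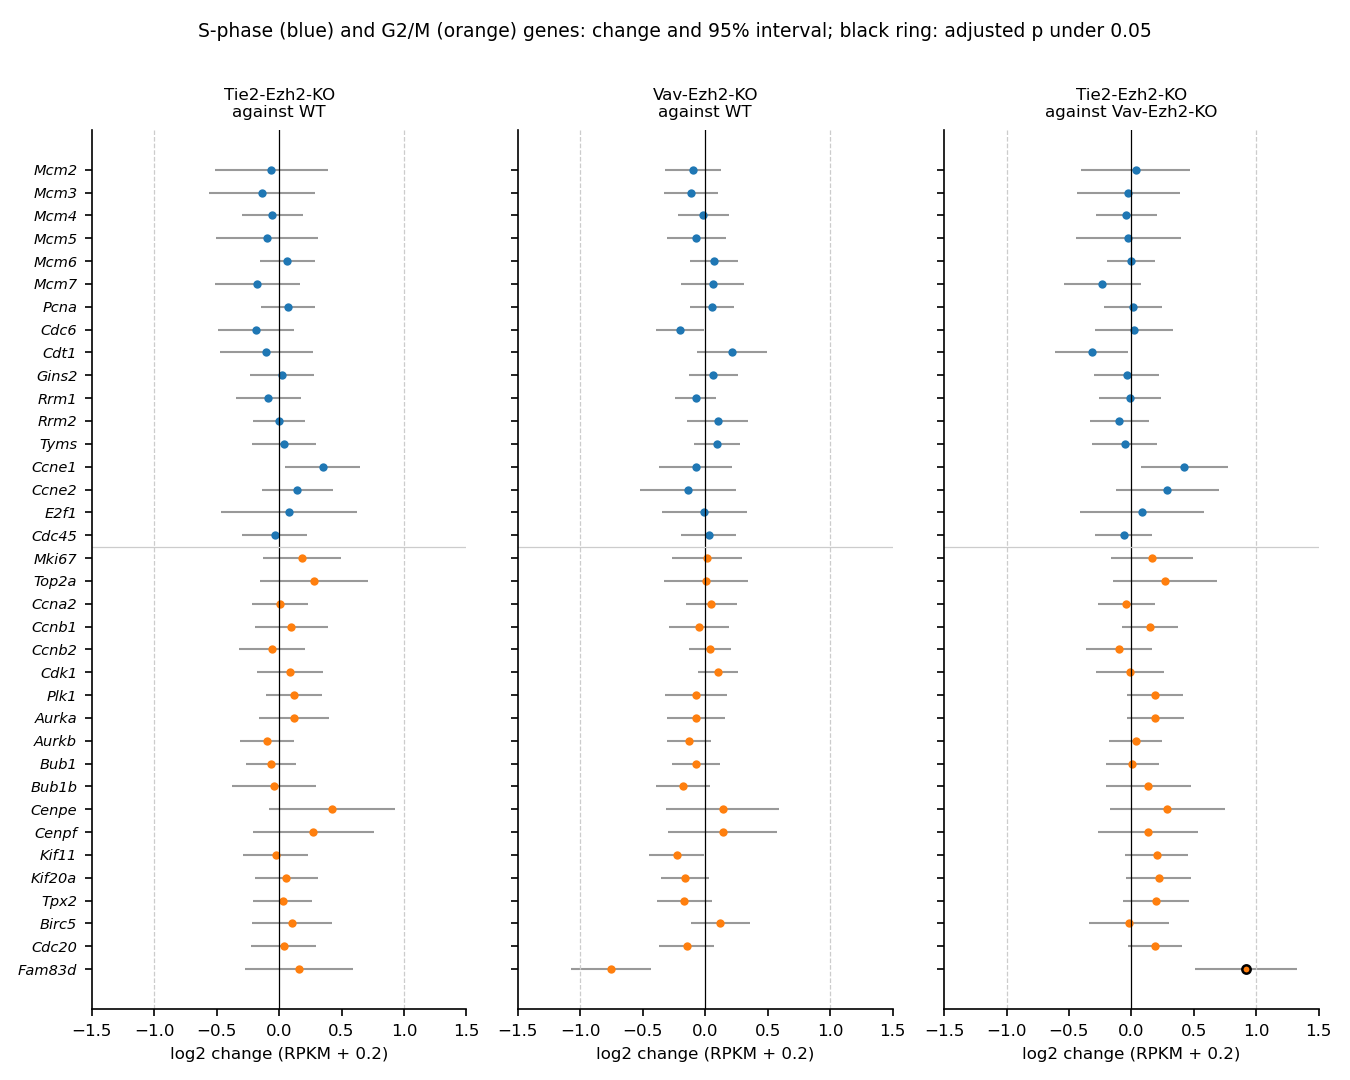
Log2 change on the RPKM + 0.2 scale (x axis) of the 36 members (y axis; S-phase blue, G2/M orange) in 3 comparisons, as limma estimates (points) with 95% intervals (lines), 5 libraries against 5. Dashed lines mark a change of 2-fold; only Fam83d between the 2 knockouts passed an adjusted p of 0.05 (ringed), and all 36 intervals of Tie2-Ezh2-KO against WT lie between the dashed lines.

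Deletion in blood cells was compared with the same 5 WT libraries, so the values of the 2 comparisons are not independent. No member passed the test, and the member farthest from its WT level was the spindle gene Fam83d. In Vav-Ezh2-KO, 0 of 17 S-phase and 0 of 19 G2/M members passed by limma, against 1 of 13646 genes (0.00733%). That gene was Sva (log2 change 3.86), a secreted protein gene outside the lists that was named after its value was seen. At an unadjusted p under 0.05 there were 1 S-phase member, Cdc6, 2 G2/M members, Kif11 and Fam83d, and 1082 genes, all 3 members with negative changes, and limma-voom on recovered reads called 0 members. The median log2 change was -0.01 over the S-phase members and -0.07 over the G2/M members, beside -0.02 over all genes tested; the S-phase median was 0.04 after scaling to a common median. The 95% interval lay within 2-fold for all 17 S-phase members and for 18 of 19 G2/M members, all but Fam83d, against 97.5% of the genes above 5 RPKM.

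Fam83d, a protein of the mitotic spindle (chr2:158768099-158786637 in GRCm38), was at 16.8, 15.1 and 14.3 RPKM in Tie2-Ezh2-WT, 11.4 and 10.51 in Vav-Ezh2-WT, 10.3, 13.4, 23.2, 15.5 and 15.6 in Tie2-Ezh2-KO and 9.23, 7.30, 7.95, 8.31 and 6.81 in Vav-Ezh2-KO. All 5 Vav-Ezh2-KO libraries were below every WT library, and the 2 Vav-Ezh2-WT libraries were in turn below the 3 Tie2-Ezh2-WT libraries. It was the only one of 36 members whose Vav-Ezh2-KO and WT libraries did not overlap, against 1.41% of all genes. The change was not past the threshold (log2 change -0.75, SE 0.15, 95% interval -1.08 to -0.43, adjusted p = 0.302 by limma, exact permutation p = 0.00794, the smallest that 5 against 5 libraries allow, lower in 5 of 5 libraries). Against Vav-Ezh2-WT alone the log2 change was -0.47 with an adjusted p of 0.862, and over all 21 alternatives it ranged from -0.84 to -0.47, with adjusted p from 0.25 to 0.862. For Cdc6, 4 of 5 Vav-Ezh2-KO libraries were below all WT libraries and Vav-Ezh2-KO 10 was among them (log2 change -0.20, SE 0.09, 95% interval -0.40 to -0.01, adjusted p = 0.62). Kif11, the motor that separates the spindle poles, was at 49.7, 40.9 and 42.3 RPKM in Tie2-Ezh2-WT, 36.7 and 38.6 in Vav-Ezh2-WT, 35.1, 37.2, 48.6, 40.6 and 43.0 in Tie2-Ezh2-KO and 33.3, 39.2, 30.9, 38.5 and 35.3 in Vav-Ezh2-KO. Of its Vav-Ezh2-KO values 3 were below all WT values (log2 change -0.23, SE 0.10, 95% interval -0.45 to -0.01, adjusted p = 0.624). Cdt1, the partner of Cdc6 in helicase loading, was the S-phase member with the next smallest unadjusted p in this comparison, at 51.4, 64.1 and 51.6 RPKM in Tie2-Ezh2-WT, 77.0 and 85.3 in Vav-Ezh2-WT, 72.4, 41.7, 56.0, 66.5 and 69.9 in Tie2-Ezh2-KO and 69.9, 77.1, 74.1, 75.1 and 79.4 in Vav-Ezh2-KO. Its Vav-Ezh2-KO values were above all Tie2-Ezh2-WT values and overlapped those of Vav-Ezh2-WT (log2 change 0.22, SE 0.13, 95% interval -0.06 to 0.50, adjusted p = 0.695).

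The 2 knockouts were then compared with each other. Fam83d was higher in Tie2-Ezh2-KO, at 15.6 ± 4.76 RPKM (SD, n = 5), than in Vav-Ezh2-KO, at 7.92 ± 0.931 RPKM (SD, n = 5), and all 5 values of the first group were above all 5 of the second (log2 change 0.92, SE 0.19, 95% interval 0.51 to 1.33, adjusted p = 0.0142 by limma). It was the 1 member of 36 that passed, 1 of 19 G2/M and 0 of 17 S-phase members, against 495 of 14120 genes (3.51%), of which 372 were higher (2.63%), and the 1 member without overlap, against 5.23% of all genes. These shares are near the background and are no result about the list. Against WT, the Tie2-Ezh2-KO values of Fam83d had a log2 change of 0.16 (adjusted p = 0.898). The difference between the knockouts passed in 20 of 21 alternatives. It did not pass as the difference of 2 knockout effects, each taken against the WT of its own line (log2 change 0.44, adjusted p = 0.953, within a range of 0.0046 to 0.953 over all alternatives), and the Fam83d values of Tie2-Ezh2-WT were also above those of Vav-Ezh2-WT, without passing (log2 change 0.48, SE 0.25, 95% interval -0.05 to 1.004, adjusted p = 0.86, 3 against 2 libraries). Without Tie2-Ezh2-KO 9, 969 genes passed between the knockouts, without Vav-Ezh2-KO 28, 320, with array weights, 765, and as the difference of effects, 26; after quantile normalization 334 of 525 were higher. The summed primitive erythroid markers were also higher in every Tie2-Ezh2-KO library, and their part in the Fam83d difference was not tested.

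Among the S-phase members, Ccne1 and Cdt1 had an unadjusted p under 0.05 between the knockouts, of 0.0193 and 0.0355, as had 2342 genes in all. For Ccne1, 2 of 5 Tie2-Ezh2-KO libraries were above all Vav-Ezh2-KO libraries, and the difference did not pass (log2 change 0.42, SE 0.16, 95% interval 0.08 to 0.77, adjusted p = 0.184). Without Tie2-Ezh2-KO 9 it passed with 0.54 and an adjusted p of 0.0385, within a range of 0.0385 to 0.812 over the alternatives. For Cdt1, 3 of 5 Tie2-Ezh2-KO libraries were below all Vav-Ezh2-KO libraries (log2 change -0.32, SE 0.14, 95% interval -0.61 to -0.02, adjusted p = 0.251). The second G2/M member by unadjusted p was Cdc20, at 332, 336 and 376 RPKM in Tie2-Ezh2-WT, 255 and 276 in Vav-Ezh2-WT, 345, 276, 375, 297 and 315 in Tie2-Ezh2-KO and 276, 271, 269, 311 and 280.5 in Vav-Ezh2-KO. Its values overlapped between the knockouts (log2 change 0.19, SE 0.10, 95% interval -0.03 to 0.40, adjusted p = 0.393). The median log2 change between the knockouts was -0.02 over the S-phase members and 0.17 over the G2/M members, of which 15 were positive and 4 negative, beside 0.04 over all genes tested; the S-phase median was 0.02 after quantile normalization. As the difference of 2 effects, each against the WT of its own line, the medians were 0.21 and -0.13, opposite in sign to these.

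**Figure D2:**
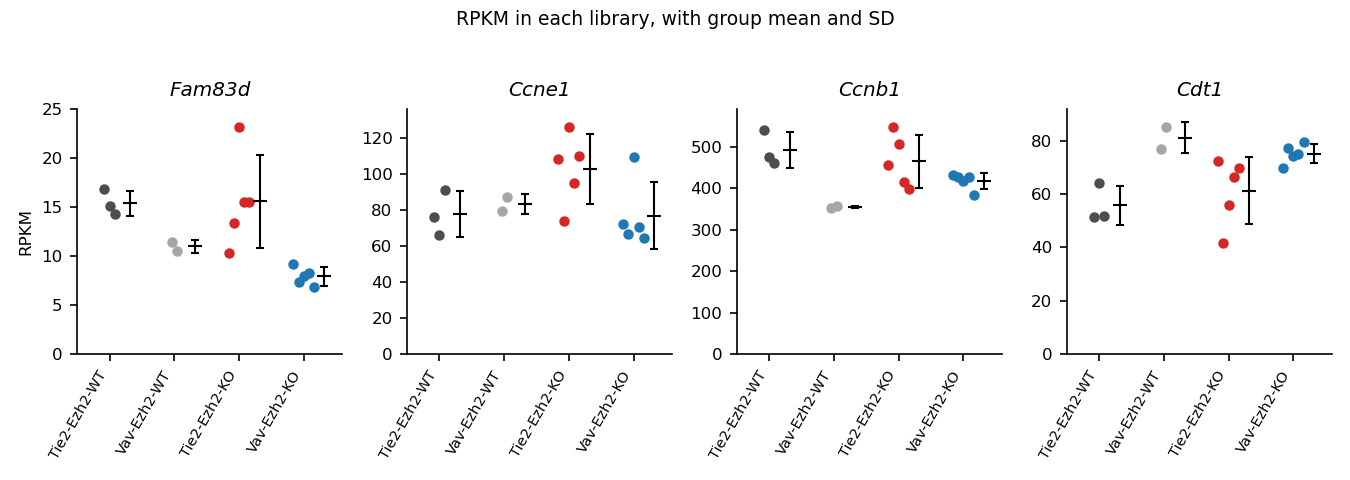
RPKM (y axis, from 0) of Fam83d, Ccne1, Ccnb1 and Cdt1 in each library (points) of the 4 groups (x axis), with the group mean and SD beside them (n = 3, 2, 5 and 5). All Vav-Ezh2-KO values of Fam83d are below all others, and for Ccnb1 and Cdt1 the Tie2-Ezh2-WT and Vav-Ezh2-WT libraries do not overlap.

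The 2 groups without Cre were compared because they were pooled as WT. S-phase members had mostly lower values and G2/M members mostly higher values in Tie2-Ezh2-WT than in Vav-Ezh2-WT. Ccnb1 was at 541, 474 and 461 RPKM in Tie2-Ezh2-WT and 353 and 357 RPKM in Vav-Ezh2-WT (log2 change 0.47, SE 0.14, 95% interval 0.18 to 0.76, adjusted p = 0.503 by limma), with no overlap of the 3 and 2 libraries. Aurka, the kinase of the spindle poles, was at 219, 231 and 219.9 RPKM against 158 and 171 RPKM (log2 change 0.44), and Cdc20 had a log2 change of 0.39 with 3 values above both of the other line. In the other direction stood Cdt1 (log2 change -0.55, adjusted p = 0.692) and Cdc45, at 58.3, 55.4 and 54.8 RPKM against 68.8 and 75.0 RPKM (log2 change -0.35). None of the 36 members passed by limma, against 2 of 14394 genes (0.0139%), among them Nfkbia (log2 change -1.70), named after its value was seen; 3 S-phase members, 5 G2/M members and 871 genes had an unadjusted p under 0.05, and limma-voom called 0 members. The libraries did not overlap, in the lower direction, for 9 of 17 S-phase members and 0 of 19 G2/M members, against 14.9% of all genes. In the higher direction they did not overlap for 12 of 19 G2/M members and 0 of 17 S-phase members, against 9.19%. Of the 6864 genes above 5 RPKM, 1190 had no overlap in the lower and 869 in the higher direction, larger shares than over all genes. The median log2 change was -0.23 over the S-phase and 0.18 over the G2/M members, beside -0.01 over all genes. It was -0.25 and 0.17 after quantile normalization and -0.20 and 0.21 at a common median. These are counts over genes of 1 pathway in 3 against 2 libraries, and no test over the lists was made.

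The choice of WT libraries turned the sign of both medians in Tie2-Ezh2-KO and of the G2/M median in Vav-Ezh2-KO. The S-phase median in Vav-Ezh2-KO stayed negative against WT of its own line and turned positive without either Vav-Ezh2-WT library. Against Tie2-Ezh2-WT only, the median log2 change in Tie2-Ezh2-KO was 0.06 over the S-phase and -0.03 over the G2/M members, and against Vav-Ezh2-WT only, that in Vav-Ezh2-KO was -0.14 and 0.08. With either choice 0 members passed. The S-phase median in Vav-Ezh2-KO against WT was 0.06 without Vav-Ezh2-WT 4 and 0.04 without Vav-Ezh2-WT 6.

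In each library, the mean over a list of the log2 deviation from the gene's mean over 15 libraries gives a description of both phases, with no test. Over the S-phase members it was -0.14, -0.08 and -0.03 in Tie2-Ezh2-WT, 0.12 and 0.15 in Vav-Ezh2-WT, 0.05, -0.36, 0.07, 0.12 and 0.09 in Tie2-Ezh2-KO and -0.02, 0.03, 0.05, -0.01 and -0.06 in Vav-Ezh2-KO. Over the G2/M members it was 0.06, 0.07 and 0.14 in Tie2-Ezh2-WT, -0.19 and -0.10 in Vav-Ezh2-WT, -0.05, 0.13, 0.20, 0.09 and 0.05 in Tie2-Ezh2-KO and -0.19, -0.04, -0.12, 0.000473 and -0.05 in Vav-Ezh2-KO. The 5 WT libraries fell into their 2 lines, with the Vav-Ezh2-WT libraries highest for S-phase and lowest for G2/M among WT. All Vav-Ezh2-KO libraries had lower S-phase means than both Vav-Ezh2-WT libraries. Tie2-Ezh2-KO 9 stood apart from its group with the lowest S-phase mean of all libraries. It was the lowest of 15 libraries for 10 of 17 S-phase members and the highest for 5 of 19 G2/M members, but also the highest for 2 S-phase members, Pcna and Tyms, and the lowest for 1 G2/M member, Bub1b. Its values were 71.1 RPKM for Mcm2, 121 for Mcm3 and 86.4 for Mcm5, whereas the next lowest Tie2-Ezh2-KO values were 131, 219.8 and 142. The same library had 590.3 RPKM of summed primitive erythroid markers, the highest megakaryocyte sum of its group at 314.0 RPKM and the lowest macrophage sum at 2.15 RPKM, and the part of these markers in its S-phase values was not tested. Tie2-Ezh2-KO 11 had a higher primitive erythroid sum, 869 RPKM, with an S-phase mean of 0.07. Without Tie2-Ezh2-KO 9, the median log2 change of Tie2-Ezh2-KO against WT was 0.03 over the S-phase and 0.06 over the G2/M members, and 1 of 17 S-phase members passed, Ccne1. Without Tie2-Ezh2-WT 4 and Tie2-Ezh2-KO 7, the libraries with visceral endoderm markers, 0 members passed and the medians were -0.06 and 0.10.

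**Figure D3:**
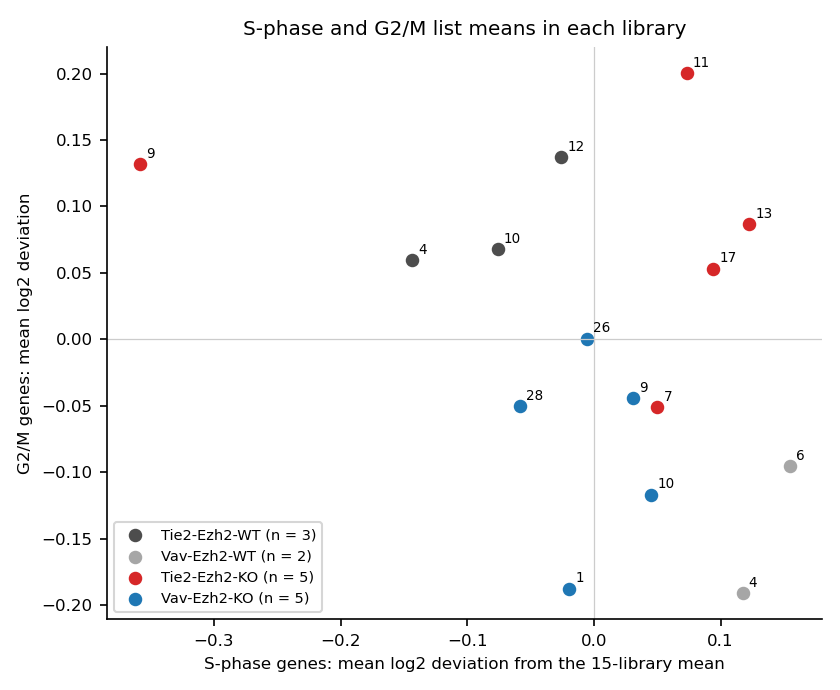
Mean log2 deviation of the 17 S-phase members (x axis) and the 19 G2/M members (y axis) from their means over 15 libraries, 1 point per library, labelled with its replicate number and coloured by group. Tie2-Ezh2-KO 9 lies at the far left at -0.36, and the 3 Tie2-Ezh2-WT and 2 Vav-Ezh2-WT libraries lie on opposite sides of 0 on both axes.

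The wider cell cycle was followed in 11 further lists of 153 genes. In Tie2-Ezh2-KO against WT, 3 of 153 genes passed, all higher (2 by limma-voom), and between the knockouts 4 of 153 passed, all higher in Tie2-Ezh2-KO. Both shares are below those of all genes (2.73% and 3.51%) and are no result about the lists. In Vav-Ezh2-KO against WT, 0 of 151 genes tested passed by limma, with 12 at an unadjusted p under 0.05 and 0 by limma-voom. Of 11 cyclins, CDKs and pocket proteins of the step before S phase, 1 rose in Tie2-Ezh2-KO. This was cyclin D1, Ccnd1, at 0.481, 0.733 and 0.719 RPKM in Tie2-Ezh2-WT, 0.584 and 1.12 in Vav-Ezh2-WT, 1.64, 2.50, 2.28, 2.57 and 2.57 in Tie2-Ezh2-KO and 0.289, 0.3004, 0.453, 1.35 and 0.156 in Vav-Ezh2-KO. All 5 Tie2-Ezh2-KO values were above all other libraries, at a low level where adding 0.2 RPKM before the logarithm understates folds (log2 change 1.46, SE 0.27, 95% interval 0.88 to 2.03, adjusted p = 0.0074 against WT and log2 change 2.01, SE 0.36, 95% interval 1.24 to 2.78, adjusted p = 0.00548 against Vav-Ezh2-KO). Of 7 CDK inhibitors, 1 rose, 3 had an unadjusted p under 0.05 and 2 had Tie2-Ezh2-KO libraries all above WT, Cdkn1c and Cdkn2a. Over all 14154 genes tested, 343 were called higher, 1552 had an unadjusted p under 0.05 and 466 had all Tie2-Ezh2-KO libraries above WT. Cdkn1c, which encodes p57, was at 4.70, 1.89 and 1.996 RPKM in Tie2-Ezh2-WT, 0.415 and 2.50 in Vav-Ezh2-WT, 12.7, 5.96, 9.80, 8.58 and 8.67 in Tie2-Ezh2-KO and 0.602, 1.29, 0.978, 1.43 and 0.251 in Vav-Ezh2-KO. All 5 Tie2-Ezh2-KO libraries were above all others (log2 change 2.14, SE 0.42, 95% interval 1.24 to 3.04, adjusted p = 0.0115 against WT and log2 change 3.18, SE 0.34, 95% interval 2.45 to 3.90, adjusted p = 0.000227 against Vav-Ezh2-KO). Cdkn2a, which encodes p16 and p19Arf and was named after its values were seen, was at 0.387, 0.576, 0.119, 0.0656 and 0.109 RPKM in Tie2-Ezh2-KO and was listed at 0 in the other 10 libraries. It did not pass against WT (adjusted p = 0.108) or against Vav-Ezh2-KO (adjusted p = 0.0841) by limma. Cdkn2a exceeded the filter of 0.2 RPKM only in Tie2-Ezh2-KO 7 and 9, and Cdkn2b only in Tie2-Ezh2-KO 7. Both genes thus entered these fits only through the group where they were high. The lack of overlap of Cdkn2a and its adjusted p values are therefore no support for a difference.

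Of 14 genes of the p53 response, 1 rose in Tie2-Ezh2-KO, 3 had an unadjusted p under 0.05 and 2 had Tie2-Ezh2-KO libraries all above WT. Over all 14154 genes tested, these counts were 343, 1552 and 466. Phlda3, a p53 target that restrains Akt, was at 6.35, 5.13 and 9.49 RPKM in Tie2-Ezh2-WT, 8.33 and 3.96 in Vav-Ezh2-WT, 23.7, 13.2, 11.9, 10.9 and 17.7 in Tie2-Ezh2-KO and 3.64, 5.00, 7.04, 3.26 and 4.11 in Vav-Ezh2-KO. All 5 Tie2-Ezh2-KO libraries were above all others (log2 change 1.199, SE 0.26, 95% interval 0.65 to 1.75, adjusted p = 0.0195 against WT and log2 change 1.69, SE 0.24, 95% interval 1.17 to 2.22, adjusted p = 0.00105 against Vav-Ezh2-KO). The call against WT was lost in 8 of 22 alternatives, with adjusted p from 0.00776 to 0.105, among them those without Tie2-Ezh2-WT 10 (log2 change 1.12), Tie2-Ezh2-KO 7 (1.03) or Tie2-Ezh2-KO 17 (1.14). Of 15 E2F, MYBL2, FOXM1 and DREAM genes, the repressor E2f6 was at 47.2, 34.7 and 43.1 RPKM in Tie2-Ezh2-WT, 39.3 and 40.6 in Vav-Ezh2-WT, 56.1, 40.1, 51.5, 51.7 and 56.4 in Tie2-Ezh2-KO and 35.3, 43.6, 36.2, 34.5 and 31.8 in Vav-Ezh2-KO. The Tie2-Ezh2-KO values other than that of replicate 9 were above all other libraries, and of the 3 comparisons the gene passed in that between the knockouts (log2 change 0.49, SE 0.12, 95% interval 0.23 to 0.75, adjusted p = 0.0386; 0.32 and adjusted p = 0.287 against WT). The call was lost in 11 of 21 alternatives, with adjusted p from 0.00658 to 0.759 and log2 changes from 0.44 to 0.58, among them those without any one of Tie2-Ezh2-KO 7, 11, 13 or 17 or of Vav-Ezh2-KO 1, 10, 26 or 28. As the difference of 2 effects, each against the WT of its own line, none of these 4 genes passed between the knockouts, with adjusted p of 0.193 for Ccnd1, 0.511 for Cdkn1c, 0.373 for Phlda3 and 0.759 for E2f6. Over all 21 alternatives, that one included, log2 changes were 1.17 to 2.78 for Ccnd1, 2.04 to 3.69 for Cdkn1c and 1.47 to 1.86 for Phlda3. The summed primitive erythroid markers were higher in the same 5 libraries, and their part in these values was not tested.

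The remaining 7 lists held the machinery of replication and mitosis, and 0 of their 106 genes passed in any of the 3 comparisons by limma or by limma-voom. At an unadjusted p under 0.05 there were 1 in Tie2-Ezh2-KO against WT, 11 in Vav-Ezh2-KO against WT and 9 between the knockouts, beside 1552 of 14154, 1082 of 13646 and 2342 of 14120 genes in all. The gene with the smallest unadjusted p in Tie2-Ezh2-KO against WT follows for each list but that of nucleotide supply. Of 16 genes of origin recognition and replisome assembly it was Mtbp, a partner of the origin-firing factor Ticrr, at 6.30, 6.17 and 7.58 RPKM in Tie2-Ezh2-WT, 7.38 and 8.74 in Vav-Ezh2-WT, 6.25, 4.03, 6.17, 6.48 and 5.36 in Tie2-Ezh2-KO and 6.22, 7.95, 6.41, 6.81 and 6.17 in Vav-Ezh2-KO. Tie2-Ezh2-KO 9 and 17 were the 2 lowest libraries, and the change did not pass (log2 change -0.35, adjusted p = 0.569). Of 20 genes of DNA polymerases, clamp loader and strand maturation it was the polymerase epsilon subunit Pole2, at 33.4, 34.7 and 36.0 RPKM in Tie2-Ezh2-WT, 37.9 and 34.7 in Vav-Ezh2-WT, 42.8, 39.8, 45.4, 35.7 and 37.9 in Tie2-Ezh2-KO and 39.8, 45.2, 48.8, 37.8 and 31.4 in Vav-Ezh2-KO. Its Tie2-Ezh2-KO values overlapped WT and Vav-Ezh2-KO (log2 change 0.18, adjusted p = 0.6253).

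Among the mitotic lists, that of 15 kinetochore and spindle checkpoint genes was led by Cenpm, a centromere protein, at 29.4, 28.1 and 34.8 RPKM in Tie2-Ezh2-WT, 35.0 and 37.4 in Vav-Ezh2-WT, 47.5, 56.8, 46.0, 33.2 and 37.9 in Tie2-Ezh2-KO and 32.5, 40.9, 40.5, 36.8 and 38.8 in Vav-Ezh2-KO. Of the Tie2-Ezh2-KO libraries, 4 of 5 were above all WT libraries without passing (log2 change 0.41, SE 0.15, 95% interval 0.09 to 0.72, adjusted p = 0.23). Of 13 condensin and cohesin genes it was the cohesin subunit Smc1a, at 22.8, 28.1 and 31.5 RPKM in Tie2-Ezh2-WT, 28.8 and 29.3 in Vav-Ezh2-WT, 30.7, 22.6, 35.3, 40.5 and 33.3 in Tie2-Ezh2-KO and 22.3, 29.2, 22.1, 25.9 and 30.2 in Vav-Ezh2-KO. Tie2-Ezh2-KO 9 was below the other 4, of which 3 were above all WT libraries (log2 change 0.19, adjusted p = 0.821). Of 19 genes of spindle motors and cytokinesis it was the kinesin Kif20b, at 10.6, 9.06 and 14.2 RPKM in Tie2-Ezh2-WT, 8.56 and 10.9 in Vav-Ezh2-WT, 8.75, 14.7, 13.8, 17.9 and 11.2 in Tie2-Ezh2-KO and 7.22, 10.3, 10.1, 9.11 and 9.65 in Vav-Ezh2-KO. Tie2-Ezh2-KO 13 and 9 were the highest libraries and Tie2-Ezh2-KO 7 was among the lowest (log2 change 0.29, adjusted p = 0.743). Of 15 genes of mitotic exit and APC/C it was the phosphatase Cdc25b, which activates Cdk1, at 4.94, 4.07 and 3.63 RPKM in Tie2-Ezh2-WT, 2.39 and 3.01 in Vav-Ezh2-WT, 8.62, 3.38, 2.78, 4.90 and 6.31 in Tie2-Ezh2-KO and 2.42, 4.89, 3.03, 6.92 and 3.34 in Vav-Ezh2-KO. Tie2-Ezh2-KO 7 was the highest library and Tie2-Ezh2-KO 11 was below most of the others (log2 change 0.43, adjusted p = 0.747). Through Cdk1, Cdc25b acts at entry into mitosis, so the name of this list does not describe it. Median log2 changes of the 7 lists lay between -0.06 and 0.07 in Tie2-Ezh2-KO against WT, between -0.12 and 0.03 in Vav-Ezh2-KO against WT and between -0.06 and 0.24 between the knockouts.

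Promoter sequences show what the members share by class. RefSeq windows of GRCm38.p6 run from 250 bases before to 50 bases after a listed start of the gene. They were matched for 29 of 36 members, 14 S-phase genes with 15 windows and 15 G2/M genes with 15 windows. For E2f1, Cdc6, Aurka and a window of Mcm7, the 250 bases before that start lay inside the gene's full span. In some other windows, among them that of Top2a, part of these bases did. All these windows are in the counts, so not every match is upstream of the whole gene. Mcm4, Gins2, Ccne2, Ccna2, Aurkb, Kif20a and Tpx2 were not matched. Both strands were searched for the letters TTTCCCGC, TTTCGCGC, TTTGCCGC and TTTGGCGC of E2F sites, TTTGAA and TTCGAA of CHR elements, and CCAAT. An E2F site was found in 6 of 15 S-phase windows (40.0%) and in 1 of 15 G2/M windows (6.67%), that of Cdk1, against 4.68% of the 6518 windows of genes above 5 RPKM and 2.26% of all 32851 RefSeq windows. A CHR element was found in 3 of 15 S-phase windows (20%) and in 12 of 15 G2/M windows (80.0%), against 14.3% and 19.2%. CCAAT was found in 10 of 15 S-phase windows (66.7%) and in 14 of 15 G2/M windows (93.3%), against 38.8% and 37.4%. In the 250 bases before the start alone, the shares were 26.7% of S-phase and 6.67% of G2/M windows for the E2F site, against 3.93% for genes above 5 RPKM and 1.86% of all windows, and 20% and 53.3% for the CHR element, against 12.5% and 17.1%. These are matches of letters and not sites of binding, and no test over the lists was made.

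The 250 bases before the start are printed 5′ to 3′ on the gene's strand for 4 members, with every match to the 3 motifs in capitals. Mcm6 is shown for its 3 E2F matches, 2 of which overlap, Cdk1 for holding all 3 motifs, Top2a for its 4 CHR and 6 CCAAT matches, and Fam83d as the member that passed between the knockouts. A window of the S-phase member Mcm7 also holds all 3 motifs. In GRCm38.p6 from RefSeq they lie at chr1:128359706-128359955 on the minus strand for Mcm6, chr10:69352913-69353162 on the minus strand for Cdk1, chr11:99024190-99024439 on the minus strand for Top2a and chr2:158767849-158768098 on the plus strand for Fam83d.
Mcm6: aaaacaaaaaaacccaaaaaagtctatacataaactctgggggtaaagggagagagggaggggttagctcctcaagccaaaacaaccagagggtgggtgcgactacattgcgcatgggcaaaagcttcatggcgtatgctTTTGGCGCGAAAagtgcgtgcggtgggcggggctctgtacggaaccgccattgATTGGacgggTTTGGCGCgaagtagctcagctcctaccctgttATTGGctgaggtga
Cdk1: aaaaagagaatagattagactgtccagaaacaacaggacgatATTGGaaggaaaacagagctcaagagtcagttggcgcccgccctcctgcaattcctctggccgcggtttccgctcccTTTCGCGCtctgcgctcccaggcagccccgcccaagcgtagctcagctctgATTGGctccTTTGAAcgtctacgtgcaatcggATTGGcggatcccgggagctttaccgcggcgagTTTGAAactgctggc
Top2a: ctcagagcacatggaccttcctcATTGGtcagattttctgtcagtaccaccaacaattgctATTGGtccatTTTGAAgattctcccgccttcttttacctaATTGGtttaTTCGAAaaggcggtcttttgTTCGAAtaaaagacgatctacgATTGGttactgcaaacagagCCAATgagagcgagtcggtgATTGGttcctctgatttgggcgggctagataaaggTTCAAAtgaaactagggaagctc
Fam83d: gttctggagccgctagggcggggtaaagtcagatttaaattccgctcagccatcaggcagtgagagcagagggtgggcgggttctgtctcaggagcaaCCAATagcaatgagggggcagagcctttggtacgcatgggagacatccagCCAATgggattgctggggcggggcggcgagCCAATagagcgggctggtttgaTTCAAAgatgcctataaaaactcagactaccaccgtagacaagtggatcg
In Fam83d, 1 CHR match starts 50 bases before the gene start and CCAAT is matched 3 times before it. The sequence of Fam83d has the pairing of CCAAT and CHR matches found in 12 of 15 G2/M windows (80.0%), 3 of 15 S-phase windows (20%) and 7.52% of all windows.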

How the data were processed

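RNA-seq libraries of 15 single yolk sacs, in 4 groups from 3 experiments that the labels do not assign to libraries, were read as RPKM deposited by the authors. Per the submitters' processing notes, the authors aligned reads with TopHat2 2.0.13, counted them with featureCounts on RefSeq genes of mm10 and computed RPKM, which is linear and not batch corrected. Reads were recovered from RPKM for all 16877 genes not at 0 everywhere (tolerance 0.0001) and gave the depths. A gene entered a fit if any of its libraries exceeded 0.2 RPKM, and was tested with limma 3.58.1 in R 4.3.3 (lmFit, eBayes with trend) on log2(RPKM + 0.2), with Benjamini-Hochberg adjusted p over all genes tested and a threshold of 0.05. Each knockout was compared with the 5 pooled WT libraries and with the other knockout; the 2 WT groups were compared in a fit of all 15 libraries. Exact permutation tests were two-sided on mean log2(RPKM + 0.2). Sums, counts and drawing used Python 3.11.15, pandas 2.3.3, numpy 2.4.6 and matplotlib 3.10.9. The test was tested on simulated data.

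Values in every library are given for members past the threshold, the 2 S-phase and 2 G2/M members with the smallest unadjusted p in each of the first 3 comparisons, the highest and lowest of each list by mean RPKM, and Pcna, Mki67, Cdk1 and Ccnb1. Of 11 further lists, the called genes and, for all but nucleotide supply, the gene with the smallest unadjusted p in Tie2-Ezh2-KO against WT are given. Members and lists were chosen with earlier results of these data known. Alternatives were other pseudocounts (1 and 0.05), filters, eBayes without trend, quantile or median scaling, 1 fit of 15 libraries, array weights, limma-voom, WT of the same line and each library left out. Sequences are from RefSeq.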

Additional observations from a re-analysis of the deposited data

Results flagged for a closer look

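In 171 groups of 5 libraries, 9 had 1 library far from the other 4, where chance gives about 1 in 20. Mcm3 was lowest in Vav-Ezh2-KO 10, at 192.3 RPKM, with the other libraries of the group from 230.2 to 239.8 RPKM. Ccne1 was highest in the same library, at 109.6 RPKM, with the others from 64.7 to 72.5 RPKM. Cdc20 was highest in Vav-Ezh2-KO 26, at 311.5 RPKM, with the others from 268.6 to 280.5 RPKM. Ccnd1 was also highest there, at 1.35 RPKM, with the others from 0.156 to 0.453 RPKM. The mean log2 deviation of the S-phase members was lowest in Tie2-Ezh2-KO 9, at -0.36, with the others from 0.05 to 0.12. The summed macrophage markers of that library were 2.15 RPKM, below 8.09 to 10.01 RPKM in the others. Its summed megakaryocyte markers were 314.0 RPKM, above 189.3 to 196.7 RPKM in the others. The summed visceral endoderm markers were 174.1 RPKM in Tie2-Ezh2-WT 4, above 1.88 to 8.55 RPKM in the other WT libraries. They were 245.1 RPKM in Tie2-Ezh2-KO 7, above 5.79 to 14.9 RPKM in the others.

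The knockouts differed from each other, by limma on the 5 against 5 libraries, in 6 of the named genes. The log2 difference of Tie2-Ezh2-KO from Vav-Ezh2-KO was 0.92 for Fam83d, 2.01 for Ccnd1, 3.18 for Cdkn1c, 0.49 for E2f6, 1.69 for Phlda3 and -0.46 for Ezh2. As a difference of 2 effects, each against the WT of its own line, none of these 6 genes passed. Over all 21 alternatives, that one included, log2 changes were 0.44 to 1.05 for Fam83d, 1.17 to 2.78 for Ccnd1 and 2.04 to 3.69 for Cdkn1c. They were 0.44 to 0.58 for E2f6 and 1.47 to 1.86 for Phlda3. The Ezh2 difference was lost in 8 of 21 alternatives, with log2 changes from -0.49 to -0.22 and adjusted p from 0.0141 to 0.972.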

How the results depend on the processing

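Up to 22 alternatives were run for each comparison, and no called value of the 36 members, 11 pathway genes or Ezh2 turned its direction in any; other genes were not followed. The count of genes called in Tie2-Ezh2-KO against WT, 386, was 187 against WT of the same line and 217 without both libraries with visceral endoderm markers, an alternative chosen after seeing the data; both have fewer libraries. Leaving out 1 library gave 262 to 438. In Vav-Ezh2-KO against WT (1), the counts were 0 by limma-voom and 2 against WT of the same line, and 1 to 2 with 1 library left out. Between the knockouts (495), 765 genes were called with array weights and 26 as the difference of effects, and 320 to 969 with 1 library left out. In Tie2-Ezh2-WT against Vav-Ezh2-WT (2), 0 were called by limma-voom and 1 at a common median, both chosen after seeing the data.

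S-phase members called numbered 0 to 1 with 1 library left out, both in Tie2-Ezh2-KO against WT and between the knockouts, and were 0 in all other alternatives; the 1 was Ccne1 without Tie2-Ezh2-KO 9. The G2/M member called between the knockouts, Fam83d, was called in all alternatives but the difference of effects, which gave 0. Apart from fewer libraries, the cause of these shifts was not tested. The log2 change of members that did not pass took both signs over the alternatives for 11 of 17 S-phase and 12 of 19 G2/M members in Tie2-Ezh2-KO against WT, 11 and 10 in Vav-Ezh2-KO against WT, and 15 and 13 between the knockouts. No paired analysis was possible because no 2 groups share replicates from the same yolk sacs or litters in the labels, and no 2 share more than 1 replicate number.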
